A study of Mus musculus with 6 samples.

Results

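Rab small GTPases were examined across WT and Slc37a2 KO osteoclasts as the rows of the count table whose symbol is Rab followed by a number, with or without a letter and a digit after it. The table held 58 such genes among 22601, and 49 of them were among the 13483 genes that passed the filter on low counts and were tested. The other 9 (Rab17, Rab19, Rab25, Rab26, Rab36, Rab37, Rab39b, Rab3c and Rab44) had at most 22 counts in any library.

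Rab proteins are molecular switches of membrane traffic. Bound to GTP they sit on a membrane through prenyl tails and recruit effectors such as tethers and motor adaptors, and bound to GDP they are drawn back into the cytosol by GDP dissociation inhibitors. Exchange factors load them with GTP at a given organelle and GTPase-activating proteins end the signal. In osteoclasts, the bone-resorbing cells of the macrophage lineage, secretory lysosomes fuse with the plasma membrane facing bone and form the ruffled border, a step that depends on Rab7 and its adaptor Plekhm1.

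RNA was sequenced from 3 WT and 3 Slc37a2 KO samples, called cultures here after their labels. The labels describe bone marrow macrophages kept in M-CSF at 2 ng/ml. These were driven to osteoclasts over 5 days with RANKL at 10 ng/ml and M-CSF at 2 ng/ml, alike for both genotypes. For the macrophages before RANKL, the study's methods give a higher M-CSF dose. The KO mice were homozygous for the tm2a(KOMP) gene-trap cassette, derived from 1 ES cell clone and kept on the C57BL/6N background, so the allele was carried by all cells of the animal and no tissue-specific Cre was involved. The column headings, written here as K090, L080 and L082 for WT and K089, L078 and L081 for KO, also hold a letter F and an age, 11 weeks. The study's account of its results also speaks of osteoclasts, while its sequencing methods describe RNA of whole femurs and tibias. In these libraries all 12 osteoclast markers were detected, with a summed level of 40937 to 80160 counts per 1000000 (CPM). The 12 osteoblast and stromal markers summed to 864 to 2439 CPM, from 111149 counts of Col1a1 to 2 of Bglap over the 6 libraries. The 7 neutrophil and mast cell markers summed to 0.353 to 1.44 CPM, from 112 counts of S100a8 to 3 each of Mpo and Camp.

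Totals ran from 27552183 to 42522292 counts, and 58 Rab genes took 0.401% to 0.417% of them. The targeted gene, Slc37a2, had 75789, 60889 and 76013 counts in WT and 1233, 1446 and 1043 in KO, a log2 fold change of -5.82 (adjusted p = 7.07e-04, edgeR quasi-likelihood test), and it was the only gene of 13483 called, 0.00742% of those tested.

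Promoters of 47 of the 58 genes were found in the RefSeq table for GRCm38.p6, in 59 windows of 250 bases before and 50 after the start. Those of Rab7, the highest Rab gene, and of Rab32, Rab8b, Rab20 and Rab39 are given 5′ to 3′, with matches to 4 short motifs in capitals. The last 4 genes are among 10 Rab genes, described further on, that were highest in WT K090, WT L080 and KO L078.
Rab7, chr6:88045221-88045520, minus strand: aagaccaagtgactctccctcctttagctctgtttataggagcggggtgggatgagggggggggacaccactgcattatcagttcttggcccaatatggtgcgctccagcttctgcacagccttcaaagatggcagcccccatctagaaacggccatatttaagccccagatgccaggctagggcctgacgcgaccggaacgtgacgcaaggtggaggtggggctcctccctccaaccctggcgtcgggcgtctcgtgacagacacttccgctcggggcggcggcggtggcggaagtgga
Rab32, chr10:10558158-10558457, minus strand: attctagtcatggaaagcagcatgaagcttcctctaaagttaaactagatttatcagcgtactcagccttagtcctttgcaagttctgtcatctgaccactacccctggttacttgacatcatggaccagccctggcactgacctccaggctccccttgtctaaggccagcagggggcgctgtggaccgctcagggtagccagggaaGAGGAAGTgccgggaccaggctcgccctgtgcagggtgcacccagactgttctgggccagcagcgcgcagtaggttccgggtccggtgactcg
Rab8b, chr9:66919656-66919955, minus strand: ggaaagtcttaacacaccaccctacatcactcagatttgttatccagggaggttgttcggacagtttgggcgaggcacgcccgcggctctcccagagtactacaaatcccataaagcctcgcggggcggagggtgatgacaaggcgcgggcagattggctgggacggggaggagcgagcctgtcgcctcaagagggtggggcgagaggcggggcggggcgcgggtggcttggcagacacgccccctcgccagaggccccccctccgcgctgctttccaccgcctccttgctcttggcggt
Rab20, chr8:11478591-11478890, minus strand: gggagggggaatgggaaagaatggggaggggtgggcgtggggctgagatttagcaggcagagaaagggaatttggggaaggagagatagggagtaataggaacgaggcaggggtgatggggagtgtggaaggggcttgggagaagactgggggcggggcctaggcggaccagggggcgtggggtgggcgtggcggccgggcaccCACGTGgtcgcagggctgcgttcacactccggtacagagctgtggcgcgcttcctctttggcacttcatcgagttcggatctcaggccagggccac
Rab39, chr9:53706183-53706482, minus strand: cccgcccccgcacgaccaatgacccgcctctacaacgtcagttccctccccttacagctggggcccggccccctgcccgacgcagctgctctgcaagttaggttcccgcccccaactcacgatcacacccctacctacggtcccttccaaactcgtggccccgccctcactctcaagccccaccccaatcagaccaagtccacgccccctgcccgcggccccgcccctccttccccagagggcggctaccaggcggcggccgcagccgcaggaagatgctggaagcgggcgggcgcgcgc
Each window was searched on both strands for CACGTG, the E-box core read by the MiT-TFE factors of lysosomal genes, for GAGGAAGT, a box of the myeloid factor PU.1, for TGANTCA, an AP-1 site, and for GAAA, 2 further bases and GAAA, an interferon-stimulated response element. The capitals in Rab20 are an E-box that begins 46 bases before the start. Those in Rab32 are a PU.1 box that begins 43 bases before the start, and no match in the printed windows overlapped another. The printed windows of Rab7, Rab8b and Rab39 held none of the 4 strings. A further window of Rab7 (chr6:88044968-88045267, minus strand), which is not printed, also held none. The E-box was in 6 of 59 Rab windows (10.2%; Rab20, Rab21, Rab23, Rab24, Rab27a and Rab5a) against 7.15% of all 32851 promoters. The PU.1 box was in 2 Rab windows (3.39% against 3.2%), the AP-1 site in 3 (5.08% against 7.81%) and the response element in 1 (1.69% against 3.44%), so these shares lay near those of all promoters.

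Levels were first compared between Rab genes, as CPM per kilobase of merged exons. Rab7 (ENSMUSG00000079477.9, chr6:87999106-88045270, minus strand, mm10), which drives fusion of late endosomes with lysosomes, was the highest, at a mean of 251 CPM per kb and 215 to 294 over the 6 libraries. It did not overlap with any other member and made up 16.0% of the summed Rab CPM. Rab1b (mean 114, range 95.4 to 132), a GTPase of traffic from endoplasmic reticulum to Golgi, and Rab5c (106, range 101 to 111), of early endosome fusion, followed and overlapped each other. Their levels per kb were below those of Rab7 in every library.

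Rab1a (88.3 CPM per kb) and Rab31 (84.2) came next and also overlapped. Rab10, which carries vesicles to the plasma membrane, stood at 69.1 and Rab2a, of early Golgi traffic, at 55.6. Rab38 (ENSMUSG00000030559.8, chr7:88430273-88491572, plus strand), a GTPase of lysosome-related organelles such as melanosomes, had the eighth place with a mean of 51.8 but a range of 38.1 to 69.0, which covered the whole range of Rab2a and reached into those of Rab10 and Rab35. Rab35 (35.7) and Rab6a (33.3) completed the 10 highest and overlapped with Rab11a at 32.8. With the longest transcript as length in place of the merged exons, Rab11a and Rab14 entered the 10 highest and Rab35 and Rab6a left.

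**Figure D1:**
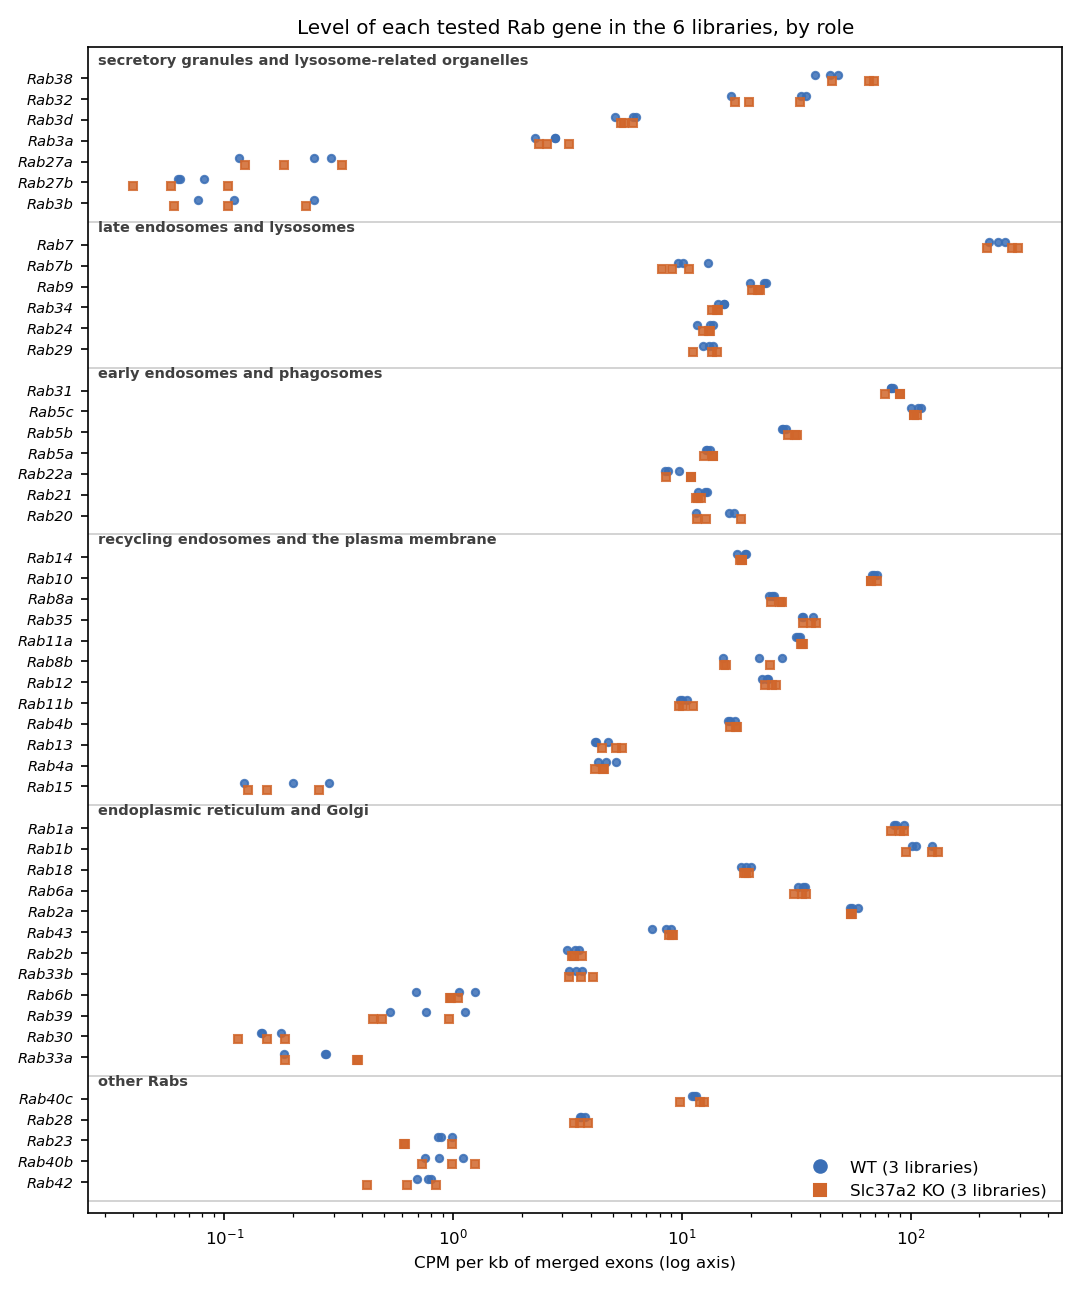
Level of each of the 49 tested Rab genes in CPM per kb of merged exons on a log axis, grouped by role, with each point 1 library (blue circles WT, orange squares Slc37a2 KO). Rab7 lies at 215 to 294 CPM per kb, above every other Rab gene, and blue and orange points overlap for every gene except Rab5b, Rab11a and Rab34.

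Within small families 1 member often held most of the transcripts, counted per length. Rab7 made 95.6% ± 1.01 (SD, n = 3) of the Rab7 and Rab7b total in WT and 96.5% ± 1.07 in KO. Rab6a held 97.1% of its pair with Rab6b in WT, Rab2a 94.3% of its pair with Rab2b and Rab11a 76.1% of its pair with Rab11b. Rab5c gave 72.3% ± 1.19 of the Rab5 total in WT and 70.3% ± 1.34 in KO. Rab5b gave 18.1%, 19.2% and 19.5% of that total in WT and 21.3%, 19.7% and 21.1% in KO. These values did not overlap, though WT L082 and KO L078 nearly touched. The shares of every other gene in the families compared did overlap. Rab1a and Rab1b were closer, with Rab1b at 55.6% ± 1.38 in WT and 56.8% ± 2.64 in KO. Rab3d, the granule Rab known from osteoclasts, made 67.9% of the Rab3 total in WT and 66.8% in KO, ahead of Rab3a.

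The sum over all Rab genes was 4043 CPM ± 34.4 (SD, n = 3) in WT and 4145 ± 226 in KO. The KO cultures, at 4332, 3894 and 4210 CPM, lay on either side of WT, at 4009, 4041 and 4078. When CPM were taken on library totals without scaling factors the means were 4122 in WT and 4058 in KO, which turned the order of the genotypes.

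No Rab gene was called between Slc37a2 KO and WT. With the quasi-likelihood test of edgeR, adjusted over all genes after Benjamini and Hochberg, 0 of 49 passed an adjusted p of 0.05, the lowest adjusted p being 0.969, and 0 were called by the Wald test of DESeq2 or the likelihood ratio test of edgeR. At an unadjusted p below 0.05 there was 1 Rab gene of 49 (2.04%), Rab38, against a share of 0.712% over all genes. Log2 fold changes ran from -0.34 (Rab39) to 0.46 (Rab38), with 25 genes higher and 24 lower in KO and a median of 0.00, beside -0.02 over all genes.

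The intervals show how large a difference remained possible. The 95% interval lay inside log2 fold changes of -1.5 to 1.5 for 48 of 49 Rab genes (98.0%), against 90.8% of all genes, the exception being Rab3b, a scarce gene, at -1.60 to 1.45. It lay inside -0.5 to 0.5 for 33 of 49 (67.3%, against 55.4% of all genes). Among all genes with a mean above 1 CPM these shares were 93.9% and 62.9%. Inside -1 to 1 lay 42 of 49 Rab genes (85.7%), against 78.6% of all genes and 86.2% of those above 1 CPM. The most even gene was Rab10, at 238, 244 and 251 CPM in WT and 252, 235 and 237 CPM in KO. It spread 1.07-fold over the 6 libraries, and Rab11a and Rab2a each spread 1.08-fold. The median spread of the Rab genes, highest over lowest library, was 0.30 on the log2 scale, beside 0.42 over all genes tested and 0.37 over those with a mean above 1 CPM.

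**Figure D2:**
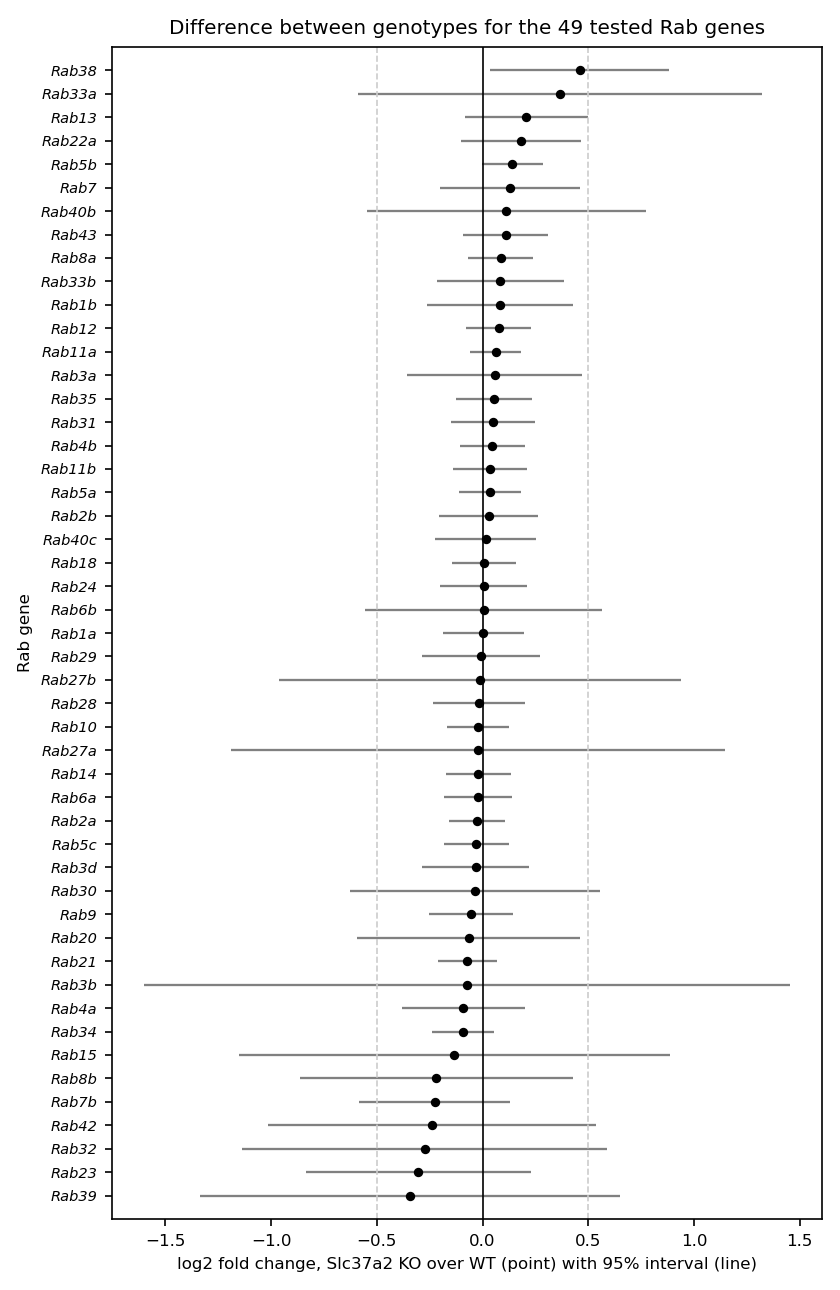
Log2 ratio of KO to WT for the 49 tested Rab genes (points) with 95% intervals from the edgeR fit (lines), ordered by the fold change. The points run from -0.34 for Rab39 to 0.46 for Rab38, and the widest interval, of Rab3b, runs from -1.60 to 1.45.

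Among the Rabs of secretory granules and lysosome-related organelles, 7 of 11 were tested, 2 with a higher and 5 with a lower estimate in KO, none called. Rab38 was at 60.0, 70.1 and 76.2 CPM in WT and 109, 71.4 and 103 CPM in KO. KO K089 and KO L081 lay above every WT culture, while KO L078 lay between WT L080 and WT L082, so the groups overlapped. The log2 fold change was 0.46 (SE 0.18, 95% interval 0.03 to 0.88), with an unadjusted p below 0.05 and an adjusted p of 0.969 by edgeR's quasi-likelihood test.

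The estimate for Rab38 was 0.37 without WT K090 or without KO K089 and 0.63 without KO L078. Its unadjusted p was no longer below 0.05 without WT K090, WT L080, KO K089 or KO L081. Leaving out KO L078 raised the number of Rab genes with an unadjusted p below 0.05 from 1 to 6 (Rab13, Rab22a, Rab23, Rab38, Rab5b and Rab7) and left 0 called, with a lowest adjusted p of 0.227. In that fit the share was 12.5% of 48 Rab genes against 20.1% of all 13585 genes tested. With the first letter of the heading, K or L, as a second term, Rab38 had a log2 fold change of 0.46 with an unadjusted p above 0.05 (adjusted p = 0.996, edgeR quasi-likelihood test). Among the K cultures WT was at 60.0 and KO at 109 CPM with 1 culture each, and among the L cultures KO overlapped WT.

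The osteoclast markers, taken as a sum, moved over the same libraries as Rab38. Their summed level was 40937, 53693 and 61330 CPM in WT and 80160, 44528 and 71553 in KO, so that KO K089 and KO L081 were again the highest and WT K090 the lowest. All 12 markers had a higher estimate in KO and none was called. Rab38 per 1000 CPM of these markers was 1.47, 1.31 and 1.24 CPM in WT and 1.36, 1.60 and 1.45 CPM in KO, and these ratios, chosen after the values were seen, overlapped. The part of the markers in the Rab38 values was not tested, and in bulk RNA fewer cells of a type and less RNA per cell cannot be told apart.

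Rab32 (ENSMUSG00000019832.5, chr10:10545002-10558265, minus strand), the closest relative of Rab38 and loaded by the same exchange factor, ran the other way between libraries. It was at 81.3, 77.8 and 38.2 CPM in WT and 40.1, 77.0 and 45.9 CPM in KO. Each genotype held high and low cultures, with a 2.13-fold spread, and the log2 fold change was -0.27 (95% interval -1.14 to 0.59). Rab32 accordingly made 47.7%, 42.8% and 25.3% of the Rab32 and Rab38 total per length in WT and 19.9%, 42.1% and 23.0% in KO. The pair was thus nearly even in WT K090 and dominated by Rab38 in KO K089.

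Rab3d was at 25.7, 26.5 and 21.5 CPM in WT and 23.5, 25.7 and 22.8 CPM in KO, and the groups overlapped (log2 fold change -0.03, 95% interval -0.29 to 0.22). Rab27a and Rab27b, which dock secretory vesicles at the plasma membrane in many blood cells, were scarce. Rab27a was at 0.955, 1.13 and 0.449 CPM in WT and 0.477, 1.27 and 0.707 CPM in KO. Rab27b was at 0.686, 0.671 and 0.867 CPM in WT and 0.624, 1.11 and 0.424 CPM in KO, and the 95% intervals of the log2 fold change were wide, at -1.19 to 1.15 for Rab27a and -0.96 to 0.94 for Rab27b. Rab44, a large Rab of immune cell granules, had 1, 0 and 6 counts in WT and 3 in each KO culture. Rab3c had 0 counts in WT, which over the 98199305 counts of that group allows up to 0.0306 CPM for counting error alone, and 2 counts in KO.

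Among the 6 Rabs of late endosomes and lysosomes, all tested, 2 had a higher and 4 a lower estimate in KO and none was called. Rab7 was at 576, 626 and 676 CPM in WT and 768, 561 and 725 CPM in KO. The lowest and the highest of the 6 cultures were both KO, and the log2 fold change was 0.13 (95% interval -0.20 to 0.46). Rab7b, a separate GTPase of traffic between late endosomes and the Golgi, was at 60.0, 44.5 and 46.7 CPM in WT and 37.9, 49.5 and 41.8 CPM in KO. The groups overlapped, and the log2 fold change of -0.23 (adjusted p = 0.969, edgeR quasi-likelihood test) had an interval of -0.59 to 0.13.

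Rab34, which acts in lysosome positioning and in cilia, was the only Rab gene with all KO cultures below all WT cultures. It was at 36.6, 34.5 and 36.4 CPM in WT and 34.1, 34.3 and 32.3 CPM in KO, with WT L080 and KO L078 nearly touching. The log2 fold change was -0.09 (95% interval -0.24 to 0.05). In all, 3 of 49 Rab genes (6.12%) had groups that did not overlap, against 4.31% of all genes, and 3 against 3 samples cannot give a two-sided exact p below 0.1. Rab9, of receptor retrieval to the Golgi, Rab24 and Rab29 had estimates between -0.05 and 0.01.

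Among the Rabs of early endosomes and phagosomes, 7 of 7 were tested and 0 called. Rab5b was at 115, 120 and 116 CPM in WT and 133, 122 and 132 CPM in KO. Every KO culture was above every WT culture, by a small step between WT L080 and KO L078. The log2 fold change was 0.14 (95% interval -0.00 to 0.28) with an unadjusted p just above 0.05 and an adjusted p of 0.969 by edgeR's quasi-likelihood test. Its unadjusted p was below 0.05 with DESeq2's size factors, upper quartile scaling, a minimum of 1 CPM in 3 libraries, DESeq2's Wald test and without KO L078.

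The other Rab5 genes were more even. Rab5a was at 67.5, 68.0 and 70.1 CPM in WT and 72.4, 65.9 and 72.2 CPM in KO. Rab5c was at 244, 236 and 221 CPM in WT and 228, 234 and 226 CPM in KO. For both, the groups overlapped, with 95% intervals of the log2 fold change of -0.11 to 0.18 for Rab5a and -0.18 to 0.12 for Rab5c. Rab22a, of endosomal recycling, was at 62.7, 60.9 and 70.2 CPM in WT and 79.4, 61.5 and 79.1 CPM in KO (log2 fold change 0.18, 95% interval -0.10 to 0.47). Its near relative Rab31 was at 312, 314 and 321 CPM in WT and 342, 293 and 344 CPM in KO. In both genes KO K089 and KO L081 were the highest cultures and KO L078 lay at or near the bottom.

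Among the Rabs of recycling endosomes and the plasma membrane, 12 of 14 were tested, 7 with a higher and 5 with a lower estimate in KO. Rab11a, the main Rab of the recycling endosome, was at 98.2, 94.0 and 96.2 CPM in WT and 99.6, 101 and 100.1 CPM in KO. The KO cultures lay above WT without overlap, by a log2 fold change of 0.06 (95% interval -0.06 to 0.18). Rab13, which sorts cargo to cell junctions and the leading edge, was at 9.56, 9.72 and 10.9 CPM in WT and 12.6, 10.3 and 11.9 CPM in KO, with overlap (0.21, 95% interval -0.08 to 0.50). Rab35, of rapid endosomal recycling, was at 95.8, 94.7 and 106 CPM in WT and 109, 96.0 and 103 CPM in KO.

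Rab8b and Rab8a, which carry vesicles from the Golgi to the plasma membrane, diverged over the libraries. Rab8b (chr9:66843664-66919687, minus strand) was at 129, 103 and 71.4 CPM in WT and 73.8, 114 and 72.3 CPM in KO. Rab8a stayed between 113 and 128 CPM. The share of Rab8b in the pair per length therefore ran from 36.3% in KO K089 to 52.4% in WT K090, with overlapping groups. Rab15, of the recycling compartment, was scarce, at 0.564, 0.919 and 1.32 CPM in WT and 0.587, 1.20 and 0.707 CPM in KO.

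Among the Rabs of the endoplasmic reticulum and Golgi, 12 of 15 were tested, 8 with a higher and 4 with a lower estimate in KO. Rab1b was at 240, 231 and 283 CPM in WT and 299, 217 and 283 CPM in KO. Rab1a was at 328, 322 and 355 CPM in WT and 355, 312 and 341 CPM in KO. For both, KO L078 was the lowest culture and KO K089 the highest. Rab2a was at 118, 116 and 125 CPM in WT and 117, 117 and 118 CPM in KO. Rab6a, which tethers vesicles at the Golgi, was at 120.1, 126 and 129 CPM in WT and 129, 115 and 125 CPM in KO. The groups overlapped, with fold changes of -0.03 for Rab2a and -0.02 for Rab6a on the log2 scale. Rab39 (chr9:53684110-53706232, minus strand), placed in this list but also acting in phagosome maturation, had the lowest estimate of all. It was at 3.36, 2.26 and 1.57 CPM in WT and 1.32, 2.86 and 1.45 CPM in KO, so that the groups overlapped throughout (log2 fold change -0.34, 95% interval -1.34 to 0.65). Without WT K090 the estimate was -0.01 and without KO L078 -0.80.

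The 5 remaining Rabs were Rab23, an inhibitor of Hedgehog signalling, Rab28, of cilia, the ubiquitin ligase subunits Rab40b and Rab40c, and Rab42. Their estimates lay between -0.30 (Rab23) and 0.11 (Rab40b), and none was called.

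**Figure D3:**
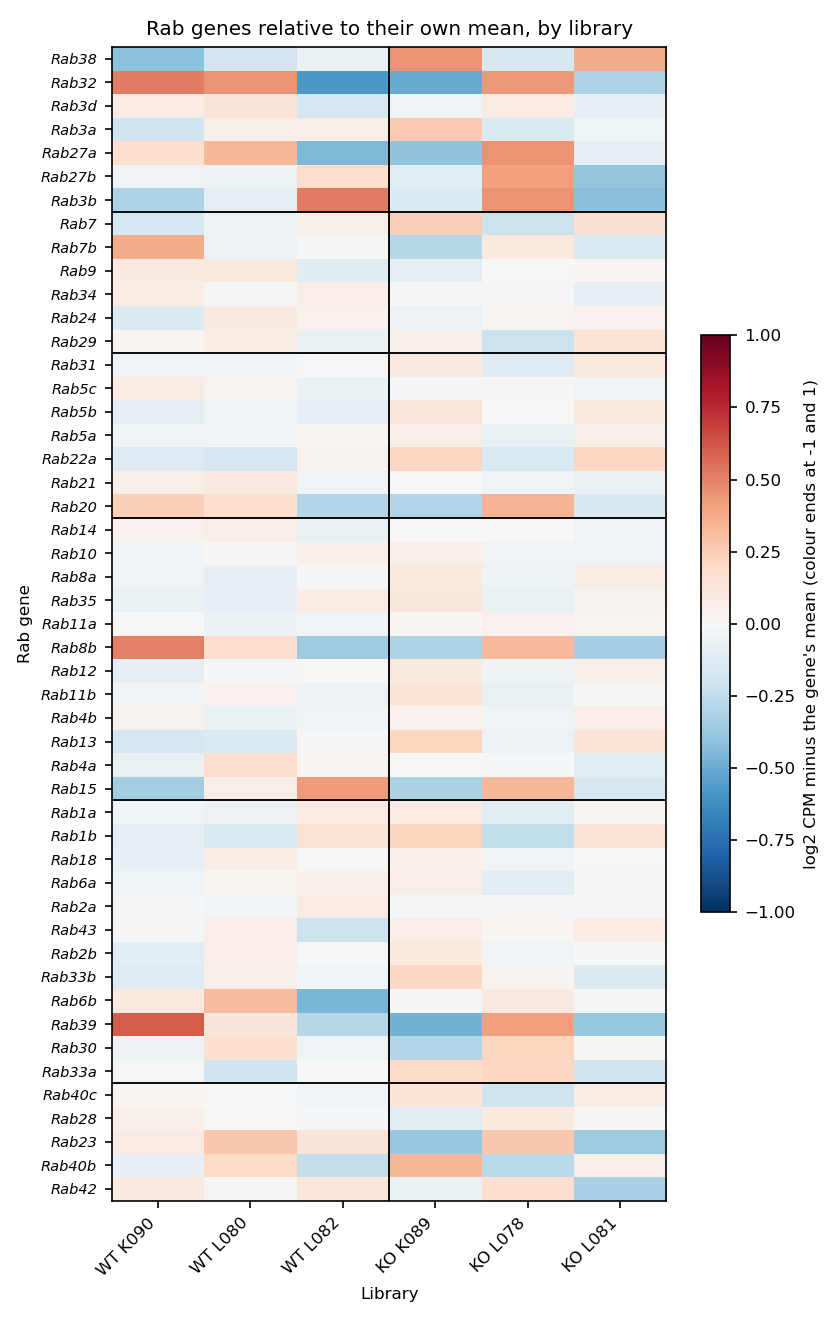
Log2 of CPM plus 0.5 for the 49 tested Rab genes in each library, minus the gene's own mean. Red is above that mean and blue below it, and the black lines separate genotypes and the roles in the order of the text. The added 0.5 narrows the spread of scarce genes such as Rab3b. Rab32, Rab8b, Rab20 and Rab39 are red in WT K090, WT L080 and KO L078 and blue in WT L082, KO K089 and KO L081, while Rab38 and Rab7 are reddest in KO K089 and KO L081.

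The spread between cultures of 1 genotype followed a few recurring orders. KO K089 and KO L081 were the highest cultures for 13 of 49 Rab genes (26.5%, against 19.0% of all genes), namely Rab12, Rab13, Rab1b, Rab22a, Rab31, Rab38, Rab40c, Rab43, Rab4b, Rab5a, Rab5b, Rab7 and Rab8a. Rab7, from its lowest to its highest value, ran KO L078, WT K090, WT L080, WT L082, KO L081, KO K089. The osteoclast marker sum, and Acp5, Ctsk and Mmp9, which took most of it, ran through the same order save that WT K090 and KO L078 changed places. KO K089 and KO L081 were also highest for the other osteoclast markers save Calcr and Ocstamp. Calcr was highest in WT L080, at 149 CPM, and Ocstamp was higher in WT L082 (288 CPM) than in KO L081 (277 CPM).

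WT K090, WT L080 and KO L078 were the highest cultures for 10 Rab genes (20.4%, against 22.6% of all genes), namely Rab14, Rab20, Rab27a, Rab28, Rab32, Rab39, Rab3d, Rab5c, Rab6b and Rab8b. Rab20, a phagosomal Rab induced by interferon in macrophages, was at 23.5, 22.4 and 16.1 CPM in WT and 16.2, 25.3 and 17.8 CPM in KO. The macrophage receptor gene Adgre1 had its 3 highest cultures in the same libraries, at 312, 272 and 80.02 CPM in WT and 64.4, 262 and 95.8 CPM in KO. So had the summed interferon response genes, at 315, 208 and 120 CPM in WT and 108, 232 and 139 CPM in KO. All 12 interferon response genes had a lower estimate in KO and none was called. The 9 macrophage markers together did not follow, with sums of 4111 to 4353 CPM in WT and 4077 to 4730 CPM in KO. Csf1r and Cd68 took most of that sum and went against this order. They were highest in KO K089 and KO L081, at 2096 and 1971 CPM for Csf1r and 2252 and 2039 CPM for Cd68. Cd14, Mrc1, Cx3cr1, Itgam, Fcgr1 and Mertk had their 3 highest cultures where Adgre1 had. Of these 9 markers 3 had a higher and 6 a lower estimate in KO and none was at 0. The part of these genes in the Rab values was not tested.

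WT L082 and KO L078 were the highest cultures for 4 Rab genes (8.16%, against 8.08% of all genes), namely Rab15, Rab27b, Rab3b and Rab42. All 4 were scarce, with at most 54 counts in any library (Rab15) and as few as 6 (Rab3b), so their order is open to counting error. Rab3b, a Rab of regulated exocytosis, was at 0.270, 0.389 and 0.867 CPM in WT and 0.367, 0.799 and 0.212 CPM in KO, and spread 4.09-fold. The osteoblast and stromal markers were highest in the same cultures, with sums of 1109, 1691 and 2218 CPM in WT and 980, 2439 and 864 CPM in KO, led by Col1a1. Of these 12 markers 10 were tested, all with a lower estimate in KO and none called. The part of stromal transcripts in these 4 Rab genes was not tested. The 3 orders were looked for after the values were seen, and their shares among Rab genes lay near those of all genes, the first being the farthest.

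**Figure D4:**
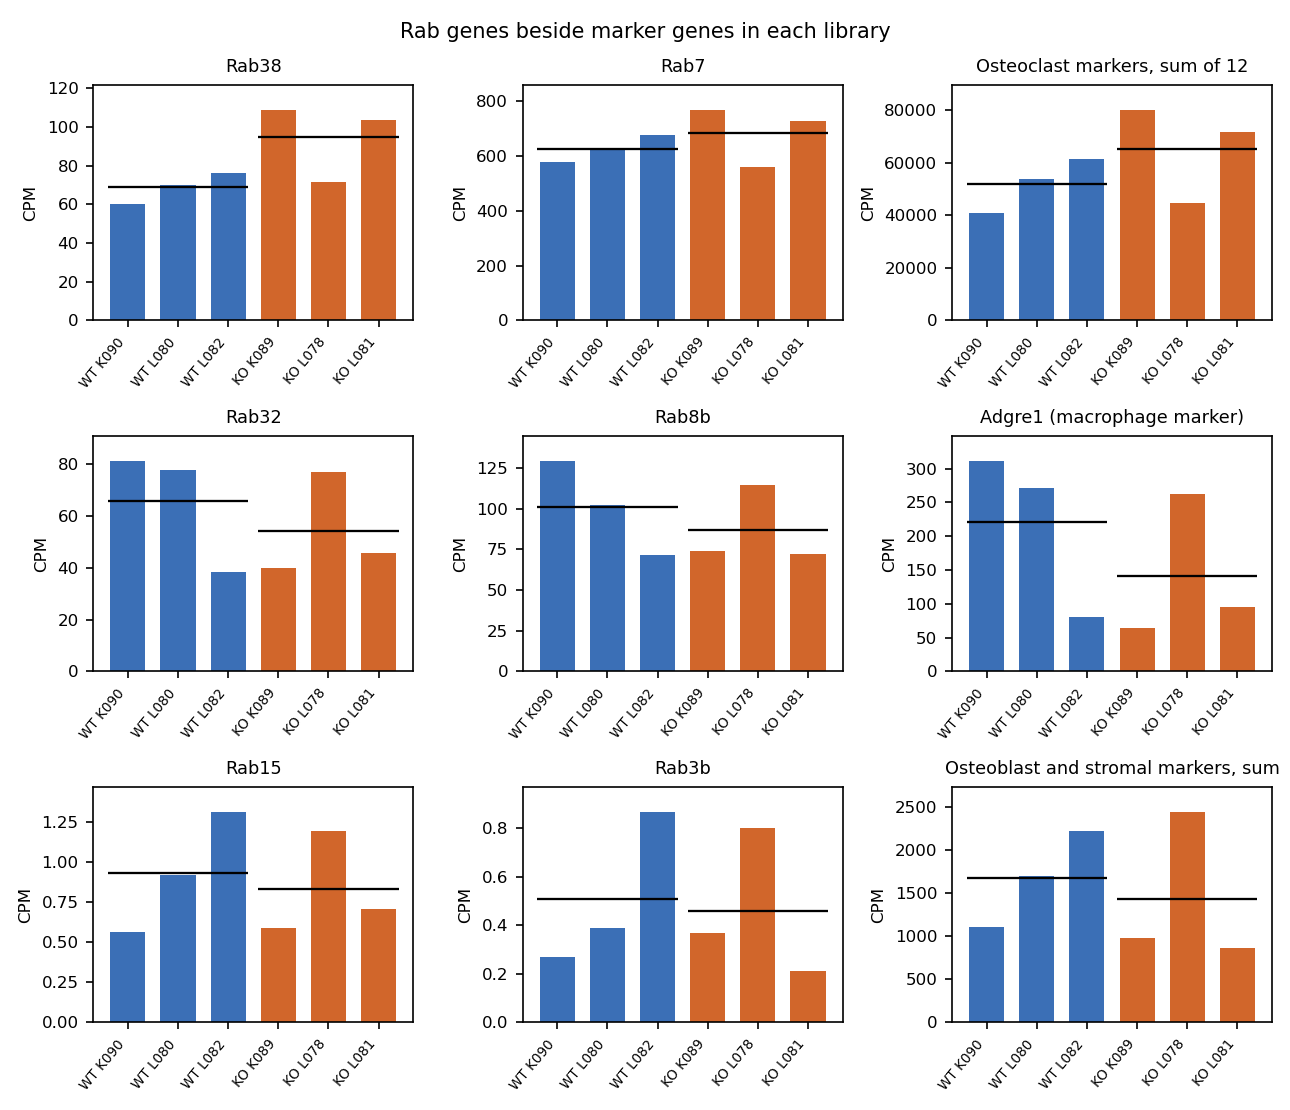
CPM in each library (bars; blue WT, orange Slc37a2 KO; black lines are group means, n = 3) of 6 Rab genes and, in the right column, of the marker genes with a like order of libraries. In the upper row KO K089 and KO L081 are highest, in the middle row WT K090, WT L080 and KO L078, and in the lower row WT L082 and KO L078. Adgre1 stands for itself alone, since the macrophage markers Csf1r and Cd68 were highest in KO K089 and KO L081. Rab15 and Rab3b, in the lower row, had at most 54 counts in any library.

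The other genes of the pathway were taken from a list of Rab regulators and effectors. Of 114 in the table, 108 were tested, 64 with a higher and 44 with a lower estimate in KO, and 0 were called or had an unadjusted p below 0.05 by edgeR's quasi-likelihood test. The Wald test of DESeq2 and the likelihood ratio test of edgeR also called 0. Their median log2 fold change was 0.03, beside -0.02 over all genes. Without KO L078, 25 of 108 (23.1%, against 20.1% of all genes) had an unadjusted p below 0.05 and none was called.

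The lowest p-values belonged to Mical1, an effector that oxidises actin, Plekhm2, which links lysosomes to kinesin, and Tbc1d10a, a GTPase-activating protein. Mical1 was at 41.0, 45.3 and 60.4 CPM in WT and 77.4, 50.6 and 77.7 CPM in KO (log2 fold change 0.49, adjusted p = 0.969, edgeR quasi-likelihood test). As for Rab38, KO K089 and KO L081 lay above WT and KO L078 among WT. Plekhm2 was at 71.7, 84.7 and 89.8 CPM in WT and 104, 86.7 and 99.0 CPM in KO. Tbc1d10a was at 23.5, 24.3 and 24.8 CPM in WT and 29.2, 24.5 and 29.4 CPM in KO. Their log2 fold changes were 0.23 and 0.20, with the same overlap of KO L078.

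The factors that act on Rab7 showed no call. Mon1a, a subunit of its exchange factor, was at 12.4, 13.0 and 10.6 CPM in WT and 12.1, 10.5 and 12.7 CPM in KO. Mon1b, the alternative subunit, was at 39.2, 38.6 and 39.8 CPM in WT and 43.4, 37.0 and 42.2 CPM in KO. The log2 fold changes of Mon1a and Mon1b were -0.03 and 0.06, with overlap. Ccz1, their partner, was at 107, 104 and 123 CPM in WT and 125, 108 and 126 CPM in KO. Rmc1, the third subunit, was at 54.7, 56.2 and 68.9 CPM in WT and 72.1, 50.2 and 66.5 CPM in KO. These groups overlapped too, at 0.10 for Ccz1 and 0.07 for Rmc1. Plekhm1, its osteoclast adaptor, was at 294, 320 and 359 CPM in WT and 448, 273 and 423 CPM in KO, so that KO cultures were both the lowest and the highest (0.23, 95% interval -0.24 to 0.70). Chm, which escorts Rabs to prenylation, was at 39.6, 40.4 and 40.9 CPM in WT and 39.9, 37.5 and 40.02 CPM in KO, with overlap. Dennd5a was the only one of the 108 whose groups did not overlap (0.926% against 4.31% of all genes), and it is named after its values were seen. It was at 121, 121 and 117 CPM in WT and 122, 124 and 125 CPM in KO.

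Reads of some members could belong to other genes. In the GENCODE M21 models, all 58 genes had a model and Rab genes shared only 21 stretches of 50 bases with each other, so that paralogs were largely apart. A pseudogene, Rab7-ps1, led the genes sharing 12.7% of such stretches of Rab7, and Rab11b shared 13.6%. Exons of other genes on the opposite strand covered 62.4% of Rab24, 64.0% of Rab2b and 25.6% of Rab20, and exons on the same strand 75.4% of Rab43 and 69.4% of Rab4b. Opposite-strand exons also covered 19.0% of Rab6a, 18.7% of Rab33b and 18.6% of Rab39b, and each other member had under 15%. The values of these 8 genes are therefore uncertain. For those with opposite-strand overlap this depends on whether reads were counted by strand, which is not stated. For Rab43 and Rab4b it holds with either setting, since their overlaps lie on the same strand. Rab38 and Rab32 shared no stretch with another gene.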

How the data were processed

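RNA-seq libraries of Mus musculus, 3 WT and 3 Slc37a2 KO, were analysed. The authors deposited raw read counts per gene in 1 table, made per the labels with bcl2fastq 2.20.0.422, build mm10 and edgeR 3.30.3; neither the aligner nor the strand setting was given in the sources used here. Columns of the authors' own comparison (fold changes, p-values) were not used, nor was a second table with their top genes. Column headings name the genotype but not the replicate of the labels, so columns were grouped by genotype only. That cultures came from separate animals is taken from the headings, which differ in animal number.

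Genes were filtered with filterByExpr (13483 of 22601 kept), scaled by TMM (factors 0.931 to 1.06) and tested with edgeR 4.0.16 in R 4.3.3 (quasi-likelihood, genotype alone, adjusted p below 0.05 over all genes tested; prior df 2.35, biological coefficient of variation 20.8%). CPM are counts per 1000000 of the TMM-scaled library total. Lengths, coordinates and shared 50-base stretches came from GENCODE M21 on GRCm38, read with Python 3.11.15, and promoters from RefSeq. The fitting code was run on simulated counts with a fixed dispersion and independent genes. That run checks the code and not its behaviour on these data. Depth was 27552183 to 42522292 counts, and floors for 0 counts (3 counts) cover counting error only. Alternatives were DESeq2 1.42.0 size factors and its Wald test, upper quartile scaling, other filters, a likelihood ratio test, the heading letter as a term and leaving out each library.

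Genes given with values in every library were the 5 tested Rabs of lowest p, those whose groups did not overlap, the 10 highest per kb, the 5 of widest spread, and Rabs known in osteoclasts or in the study; of the regulators, the 3 of lowest p and 6 preset genes. Rab8b and Rab20 were added after their values were seen. The members and lists were chosen with earlier results of these data known. Also examined were markers of dendritic cells (5 genes, summed 23.3 to 35.0 CPM) and of lymphoid cells and platelets (6 genes, 6.29 to 15.7 CPM). Those of neutrophils and mast cells (7 genes, 0.353 to 1.44 CPM) and of proliferation (10 genes, 612 to 1238 CPM) were too, and none was called. Estimates in KO were lower for all 10 proliferation markers, 2 of 2 lymphoid and platelet markers tested and 1 of 1 neutrophil marker tested. They were higher for 3 of 4 dendritic cell markers tested.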

Additional observations from a re-analysis of the deposited data

How the results depend on the processing

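The number of Rab genes called stayed at 0 in either direction under all 13 alternatives, as did that of Rab regulators and effectors. The number with a 95% interval inside -1.5 to 1.5 was 43 of 43 at a minimum of 1 CPM, 50 of 58 with no filter and 44 to 49 of 48 to 51 under the 10 other alternatives that give an interval. The summed Rab level in WT was 4122 CPM on library totals without scaling. The direction of the log2 fold change turned for genes near 0: Rab1a was -0.0030 with no filter, and Rab27b 0.0020 with DESeq2 size factors and 0.00096 with upper quartile scaling. On leaving out 1 library at a time the estimate crossed 0 for 10 named genes, with these lowest and highest values: Rab10 -0.038 to 0.025, Rab15 -0.51 to 0.23, Rab1a -0.023 to 0.073, Rab27a -0.51 to 0.26, Rab27b -0.50 to 0.26, Rab2a -0.049 to 0.032, Rab3b -0.79 to 0.57, Rab3d -0.096 to 0.025, Rab5c -0.043 to 0.0037, Rab6a -0.048 to 0.026. The other 14 tested genes given with values in every library by the naming rule kept their direction under every alternative. No paired analysis was possible because the count columns carry no replicate number. The heading letter, fitted as a second term, groups cultures but pairs none by replicate. With 3 libraries a group, Rab27a, Rab27b, Rab3b and Rab15, with means under 1 CPM, had intervals reaching beyond 0.8 on the log2 scale in both directions. Differences of that size could thus not be told from 0 for these genes. The intervals are per gene and not adjusted for the number of genes tested. Larger differences also went uncalled, since the highest log2 fold change over all genes was 10.4 and 0 genes were called higher.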
